A study of Mus musculus with 2 samples.

Results

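Bmi1, Hopx, Lrig1, Tert, Msi1 and Prom1 are 6 genes that have each been used to mark stem or progenitor cells of the small intestine. They are grouped here as reserve stem cell markers, a name that does not set them all apart from the Lgr5-positive cells of the crypt base. They were taken by symbol from the 31253 features of a single-cell count matrix of duodenal crypts, and all 6 were found. Crypts, the pits of the intestinal lining where its stem cells lie, came from wild-type mice in the groups ES and NT, letters that the labels do not spell out. The series title concerns stem cell ageing under long-lasting stress. No allele, reporter or agent is named for either group, and strain, sex and age are not given in the sources used here. Each group was 1 pool of 5 animals, so no spread between animals could be measured. The matrix holds 2 libraries, numbered 2 and 1 in the barcodes, and no label ties a number to ES or NT. The comparisons below are therefore between numbered libraries and between cell classes within them, with no test of the treatment and no direction between ES and NT.

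Crypt base columnar cells carry Lgr5, a receptor for R-spondins, divide continuously under Wnt signals and renew the epithelium. Another, slowly dividing population was proposed from mouse reporters for Bmi1, Hopx, Tert and Lrig1, while later work in mice found transcripts of several of these genes in Lgr5-positive cells too, and found Bmi1 reporter cells within the enteroendocrine lineage. Bmi1 is a subunit of Polycomb repressive complex 1, which silences genes through histone ubiquitination, and Hopx is a small homeodomain protein that does not bind DNA. Lrig1 is a transmembrane inhibitor of EGF receptor signalling, Prom1 (CD133) a glycoprotein of membrane protrusions, Msi1 an RNA-binding protein that represses translation, and Tert the catalytic subunit of telomerase.

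All 6 are protein coding in the mouse build mm10 with its GENCODE M21 annotation. Bmi1 (ENSMUSG00000026739) lies on the plus strand at chr2:18677018-18686629 and Tert (ENSMUSG00000021611) on the plus strand at chr13:73626911-73649843. Lrig1 (ENSMUSG00000030029) lies on the minus strand at chr6:94604529-94700158. The other members share chromosome 5: Prom1 (ENSMUSG00000029086) on the minus strand at chr5:43993620-44102032, Hopx (ENSMUSG00000059325) on the minus strand at chr5:77086988-77115121, and Msi1 (ENSMUSG00000054256) on the plus strand at chr5:115429599-115455698. RefSeq promoter sequence of GRCm38.p6 was matched for 5 members, and Msi1 had no entry.

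The 250 bases before the start are shown for Hopx and Bmi1, whose levels were highest in enteroendocrine cells, and for Prom1, whose level was not. Capitals mark the GC box letters GGGCGG or their reverse complement CCGCCC, overlapping matches included, and each run reads 5′ to 3′ along the gene.
Hopx, chr5:77115124-77115373, minus strand: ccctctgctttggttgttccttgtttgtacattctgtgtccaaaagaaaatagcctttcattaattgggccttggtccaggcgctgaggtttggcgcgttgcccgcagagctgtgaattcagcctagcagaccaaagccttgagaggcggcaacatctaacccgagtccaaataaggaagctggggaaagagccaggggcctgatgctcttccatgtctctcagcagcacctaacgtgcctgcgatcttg
Prom1, chr5:44101737-44101986, minus strand: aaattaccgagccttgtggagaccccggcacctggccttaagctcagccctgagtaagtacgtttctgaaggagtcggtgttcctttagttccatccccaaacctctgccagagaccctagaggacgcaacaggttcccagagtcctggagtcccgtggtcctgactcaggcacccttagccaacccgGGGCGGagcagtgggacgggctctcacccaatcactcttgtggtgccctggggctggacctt
Bmi1, chr2:18676768-18677017, plus strand: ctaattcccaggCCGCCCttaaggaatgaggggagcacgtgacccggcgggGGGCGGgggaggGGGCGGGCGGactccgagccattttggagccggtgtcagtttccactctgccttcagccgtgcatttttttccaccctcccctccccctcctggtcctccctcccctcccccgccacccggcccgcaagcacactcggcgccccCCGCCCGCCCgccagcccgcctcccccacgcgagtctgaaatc
The Hopx window held no GC box, the Prom1 window 1 and the Bmi1 window 6, with GC contents of 52.4%, 59.2% and 70.4%. Of 32851 promoter windows of the same length, 32.7% held a GC box on either strand. The letters CTTTGA, the core that TCF/LEF factors of the Wnt pathway bind, or their reverse complement, stood in 0 of the 7 windows of the 5 members and in 13.8% of all windows. Hopx and Prom1 have 2 listed starts each, and counts from the 3′ end of a transcript cannot tell which start was used.

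Library 2 held 6446 barcodes with 54877667 UMIs (molecular tags, 1 for each transcript caught), and library 1 held 6310 with 54316199. Barcodes with no fewer than 500 genes and no more than 25% mitochondrial UMIs were kept as cells, 3727 in library 2 and 4057 in library 1, with medians of 11800 and 10854 UMIs. Of the 27-base barcode sequences, 40 occurred in both libraries. Cells were put into 9 classes by the UMIs of marker panels. The stem panel held Olfm4, Ascl2 and 8 other genes but neither Lgr5 nor any of the 6 members, so their levels were free to vary. The stem class had 735 cells in library 2 and 1008 in library 1, 19.7% and 24.8% of the cells kept. Lgr5, which the panel left out, stood at 136 CPM (counts per 1000000 UMIs of the class) in library 2 and 130 CPM in library 1 in the stem class, and at most 74.2 CPM in any other class. Tuft cells were few, with 59 cells in library 2 and 29 in library 1. Throughout, ratios and levels carry exact 95% intervals for counting error only, and a ratio is called when it is at least 1.5-fold with an interval off 1.

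Bmi1 was highest in enteroendocrine cells, the hormone-secreting cells of the gut, and not in the stem class. It stood at 84.0 CPM in library 2 and 90.1 in library 1 in enteroendocrine cells, at 61.2 and 60.5 CPM in T or intraepithelial lymphocytes, and at 35.6 and 37.3 CPM in the stem class. Cycling progenitors were at 23.4 and 28.8 CPM, goblet cells at 23.5 and 23.0, enterocytes at 15.8 and 14.4, and Paneth cells at 12.9 and 12.2. The enteroendocrine level was 2.36 times that of the stem class in library 2 (1.76 to 3.12) and 2.41 times in library 1 (1.82 to 3.14). In the order of the 9 classes only the step between the stem class and cycling progenitors had an interval off 1 in both libraries, at 1.52 (1.25 to 1.85) and 1.30 (1.12 to 1.51). Neighbouring classes elsewhere in the order were not separated. After thinning to 2000 UMIs a cell, a Bmi1 UMI was seen in 12.0% and 13.2% of the lymphocytes, against 6.41% and 6.44% of the stem class, so lymphocytes give no lower background for Bmi1. Enterocytes had it in 3.17% and 2.84% of cells. The tuft level rested on 31 UMIs in library 2 and 6 in library 1, at 56.6 and 21.6 CPM.

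Hopx was also highest in enteroendocrine cells, at 550 CPM in library 2 and 333 in library 1, with tuft cells at 391 and 280 CPM and the stem class at 235 and 226 CPM, and neighbours in this order were not separated in both libraries. Goblet cells had 142 and 141 CPM, cycling progenitors 111 and 119, T or intraepithelial lymphocytes 78.4 and 81.0, Paneth cells 60.6 and 80.3, and enterocytes 43.8 and 39.0. Lower down, the steps between the stem class and goblet cells, goblet cells and cycling progenitors, cycling progenitors and lymphocytes, and Paneth cells and enterocytes were separated in both libraries. Enteroendocrine over stem class was 2.33 in library 2 (2.09 to 2.60) and 1.48 in library 1 (1.29 to 1.69), so only library 2 passed 1.5-fold. Hopx had a UMI in 77.8% of stem class cells in library 2 and 75.0% in library 1. At 2000 UMIs a cell these shares were 36.9% and 36.7%, against 14.6% and 12.7% of lymphocytes.

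Msi1 was high in tuft cells, enteroendocrine cells and the stem class and low in absorptive cells. It stood at 121 and 101 CPM in tuft cells, 84.0 and 60.1 CPM in enteroendocrine cells, and 77.0 and 60.6 CPM in the stem class. Below a step that was separated in both libraries, Paneth cells had 17.8 and 37.8 CPM, goblet cells 12.0 and 9.88, cycling progenitors 6.66 and 6.50, and enterocytes 3.78 and 2.96. Tuft over stem class was 1.56 in library 2 (1.20 to 2.02) and 1.66 in library 1 (1.10 to 2.42). Of all Msi1 UMIs in cells kept, 64.2% in library 2 and 67.3% in library 1 fell in the stem class, against 29.1% and 35.8% of those of Bmi1. At 2000 UMIs a cell, a Msi1 UMI was seen in 13.9% and 12.8% of stem class cells, against 0 of 192 lymphocytes in library 2, with an exact upper bound of 1.90%, and 0.490% of them in library 1.

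Prom1 stood at 378 CPM in library 2 and 255 in library 1 in tuft cells, at 248 and 233 CPM in the stem class, and at 235 CPM in both libraries in enteroendocrine cells. These 3 classes were not separated from each other in both libraries. Goblet cells, at 146 and 139 CPM, lay a separated step lower, cycling progenitors at 122 and 109 CPM another, and enterocytes had 54.9 and 48.8 CPM. T or intraepithelial lymphocytes, which lie outside the epithelial lineage, had 16.1 and 18.1 CPM.

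Lrig1 was the only member whose level in both libraries was higher in the stem class than in every other class, at 42.8 CPM in library 2 and 40.7 CPM in library 1. Enteroendocrine cells followed at 21.4 and 28.6 CPM, from 15 and 20 UMIs, then goblet cells at 18.8 and 17.9, cycling progenitors at 15.2 and 17.2, and enterocytes at 7.40 and 7.18. The step to enteroendocrine cells was not separated in library 1, where their level was 0.702 of that of the stem class (0.425 to 1.10). Tuft cells held 2 Lrig1 UMIs in library 2 and 3 in library 1, against 393 and 505 in the stem class, and their level was 0.0854 (0.0103 to 0.311) and 0.265 (0.0544 to 0.778) of it.

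Tert was scarce everywhere. It had 160 UMIs in library 2 and 177 in library 1 over all cells kept, and 37 and 50 in the stem class, where it stood at 4.03 CPM in both libraries. Cycling progenitors had 4.14 and 4.33 CPM and enterocytes 2.80 and 4.64 CPM, and no neighbouring classes were separated. A Tert UMI was seen in 4.63% of stem class cells in library 2 and 4.66% in library 1, against 0.437% and 0.735% of T or intraepithelial lymphocytes, whose median depth was 3243 and 2468 UMIs beside 12405 and 11366.5 in the stem class. At this depth a difference in Tert between neighbouring classes was not detectable.

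**Figure D1:**
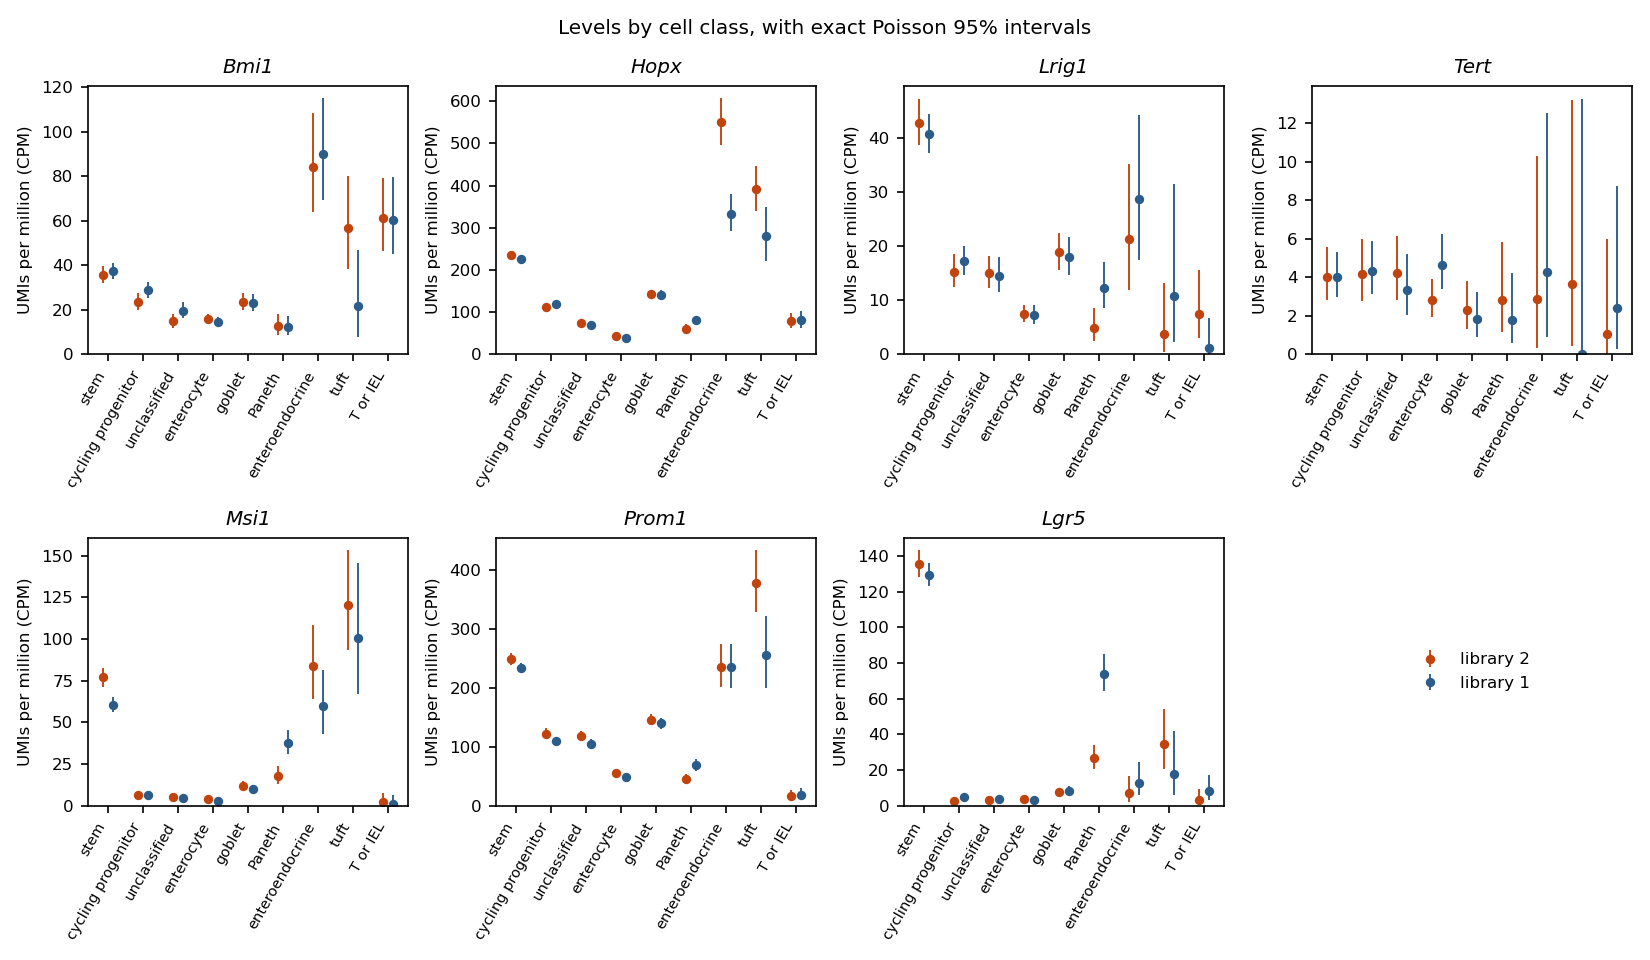
Level of each member and of Lgr5 in 9 cell classes, in CPM on a linear axis that starts at 0, with library 2 and library 1 as coloured points and exact Poisson 95% intervals as lines. Bmi1 and Hopx peak in enteroendocrine cells, Msi1 and Prom1 in tuft cells, Lrig1 and Lgr5 in the stem class, and Tert stays between 0 and 4.64 CPM.

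Between the stem class and enterocytes, the differentiated absorptive cells, 5 of the 6 members were at least 1.5-fold higher in the stem class in both libraries, where 36.7% of the 9609 genes compared were. Stem class over enterocytes was 20.4 in library 2 and 20.5 in library 1 for Msi1, 5.78 and 5.68 for Lrig1, 5.37 and 5.78 for Hopx, 4.53 and 4.78 for Prom1, and 2.25 and 2.60 for Bmi1. Tert was at 1.44 (0.879 to 2.36) and 0.869 (0.568 to 1.33). The median log2 ratio was 2.35 for the 6 members and 0.43 for all genes with at least 20 UMIs in the stem class. Against cycling progenitors 4 members (Hopx, Lrig1, Msi1 and Prom1) were called higher in the stem class, beside 8.18% of all genes, with ratios for Msi1 of 11.6 in library 2 and 9.32 in library 1. Against goblet cells the same count was 5 of 6, beside 14.9%, against unclassified cells 5 of 6, beside 22%, and against T or intraepithelial lymphocytes 4 of 6, beside 25.7%. Against Paneth cells it was 5 of 6 too, but 86.1% of all genes were. The Paneth panel alone stood at 452392 CPM in library 2 and 426107 CPM in library 1 in those cells, so a share near this background says nothing of the members.

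Turned the other way, Bmi1 was the 1 member called higher in enteroendocrine cells than in the stem class, beside 13.8% of all genes, and also the 1 member called higher in T or intraepithelial lymphocytes, beside 18.7%. Msi1 was the 1 member called higher in tuft cells, beside 8.06%, and Lrig1 the 1 called lower there, beside 5.6%. Of the enteroendocrine cells, 3.53% in library 2 and 22.4% in library 1 also passed the stem panel, and of tuft cells 6.78% and 17.2% did. Without those cells, enteroendocrine over stem class was 2.45 in library 2 and 2.62 in library 1 for Bmi1. For Hopx it was then 2.35 and 1.54 (1.31 to 1.80), which passes the call in both libraries. The library 1 ratio had been 1.48 with those cells, so the 1.5-fold line was crossed narrowly. That made 2 members called higher in enteroendocrine cells rather than 1, but the share of all genes called without those cells was not computed. Tuft over stem class for Msi1 was then 1.76 (1.35 to 2.27) in library 2 and 1.52 (0.910 to 2.39) in library 1, and the Msi1 call in tuft cells was lost.

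Between the libraries, 0 of the 6 members were apart by 1.5-fold either way in the stem class, where 3.1% of 9853 genes were. Library 2 over library 1 was 0.953 for Bmi1 (0.824 to 1.10), 1.04 for Hopx (0.985 to 1.10), 1.05 for Lrig1 (0.918 to 1.20) and 0.998 for Tert (0.634 to 1.56). Msi1 had the largest of these ratios, at 1.27 (1.15 to 1.41), from 708 UMIs in library 2 and 751 in library 1. Prom1 had 1.07 (1.01 to 1.13). The intervals of Bmi1, Hopx, Lrig1, Msi1 and Prom1 lay wholly inside 1.5-fold, while that of Tert reached past it.

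Outside the stem class a few members were apart. Hopx in enteroendocrine cells was at 550 CPM in library 2 and 333 CPM in library 1, a ratio of 1.65 (1.40 to 1.95), in a class where 22.5% of all genes measured were apart. Within that class, cells with at least 2 Tph1 UMIs per 10000, Tph1 being the serotonin-making enzyme of enterochromaffin cells, had 898 CPM of Hopx in library 2 and 590 in library 1. The other enteroendocrine cells had 333 and 169 CPM. Intervals were 789 to 1019 and 502 to 688 CPM in Tph1-high cells, and 281 to 392 and 132 to 213 CPM in the others. These sets held only 31 and 25 Tph1-high cells and 54 and 42 others, and the spread between cells was not measured. Hopx was higher in Tph1-high cells and higher in library 2 in each set. Bmi1 ran the other way, with 59.4 and 73.3 CPM in Tph1-high cells and 99.3 and 101 CPM in the others, and its intervals overlapped.

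In Paneth cells, the granular defensin-secreting cells between the stem cells, Msi1 had 17.8 CPM in library 2, against 37.8 CPM in library 1 (0.470, 0.323 to 0.675). Prom1 was at 44.9 and 68.8 CPM there (0.652, 0.512 to 0.829) and Lrig1 at 4.85 and 12.2 CPM (0.396, 0.187 to 0.784), in a class where 14.5% of all genes measured were apart. Lgr5 was at 26.7 and 74.2 CPM in the same cells. Of the Paneth class, 6.36% of cells in library 2 and 32.2% in library 1 also passed the stem panel. Without them the ratios were 0.628 for Msi1 (0.396 to 0.990), 1.07 for Prom1 (0.785 to 1.48) and 0.710 for Lrig1 (0.270 to 1.84), and Lgr5 was at 0.781 (0.524 to 1.17). Tert in enterocytes was at 2.80 and 4.64 CPM, from 34 and 44 UMIs (0.602, 0.373 to 0.964), beside 4.68% of genes apart. Bmi1 in tuft cells had a ratio of 2.62 (1.08 to 7.70), beside 8.86%. Leaving out cells that passed the stem panel did not always bring the libraries closer. Prom1 in tuft cells then went from 1.48 to 2.05 (1.46 to 2.95). Msi1 in enteroendocrine cells went from 1.40 to 1.88 (1.13 to 3.23), and both then passed the call. The Msi1 ratio rested on 57 UMIs in library 2 and 22 in library 1. The Prom1 ratio rested on 195 and 41 UMIs, with 24 tuft cells left in library 1. The share of all genes apart was not computed for these reduced classes. In the whole classes it was 8.86% for tuft and 22.5% for enteroendocrine cells.

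**Figure D2:**
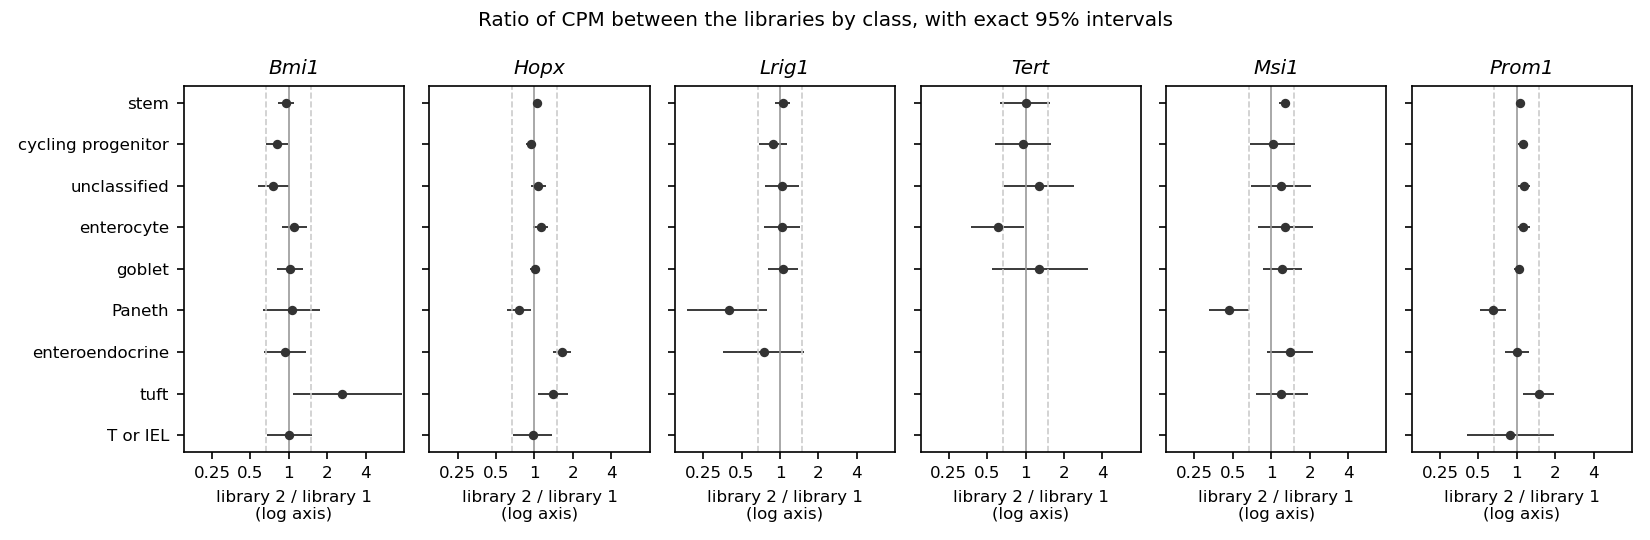
Ratio of CPM in library 2 to library 1 for each member in each class with at least 20 UMIs over both libraries, on a log axis, with exact 95% intervals, a line at 1 and dashed lines at 1.5-fold either way. Every stem class point lies inside the dashed lines. Outside lie Hopx in enteroendocrine cells (1.65), Bmi1 in tuft cells (2.62), Tert in enterocytes (0.602), and Msi1 (0.470), Prom1 (0.652) and Lrig1 (0.396) in Paneth cells.

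Co-detection with Lgr5 was read in stem class cells thinned to 2000 UMIs each, a depth that 95 cells in library 2 and 201 in library 1 did not reach. An Lgr5 UMI was then seen in 134 of 640 cells in library 2 and 160 of 807 in library 1. Of T or intraepithelial lymphocytes thinned alike, 0 of 192 in library 2 and 1 of 204 in library 1 had one. Without thinning, 44.4% and 43.7% of stem class cells had one, against 0.437% and 1.47% of the shallower lymphocytes.

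Lgr5-positive cells carried Prom1 and Msi1 more often than Lgr5-negative ones. A Prom1 UMI was seen in 45.5% of Lgr5-positive and 36.2% of Lgr5-negative cells in library 2, and in 48.8% and 34.3% in library 1. For Msi1 these shares were 21.6% and 11.9% in library 2, and 16.9% and 11.7% in library 1. For Lrig1 they were 11.9% and 7.91% in library 2, and 11.9% and 7.73% in library 1. The intervals of these shares did not overlap for Prom1 in library 1, met for Msi1 in library 2, and overlapped in the other cases.

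Hopx was level, at 38.8% of Lgr5-positive and 36.4% of Lgr5-negative cells in library 2, and 36.2% and 36.8% in library 1. Bmi1 was seen in 6.72% and 6.32% of them in library 2, and in 8.75% and 5.87% in library 1. Tert was seen in 1 Lgr5-positive and 4 Lgr5-negative cells of library 2, and in 0 of 160 and 7 of 647 cells of library 1, with an exact upper bound of 2.28% for the share of 0. By direction alone, 4 of 6 members (Bmi1, Lrig1, Msi1 and Prom1) were seen more often in Lgr5-positive cells in both libraries, where 28.7% of 7215 genes were. With another random draw of the UMIs Hopx took the place of Bmi1, so neither has a settled direction. Each member was seen in Lgr5-negative cells of both libraries, and each but Tert in Lgr5-positive cells of both.

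**Figure D3:**
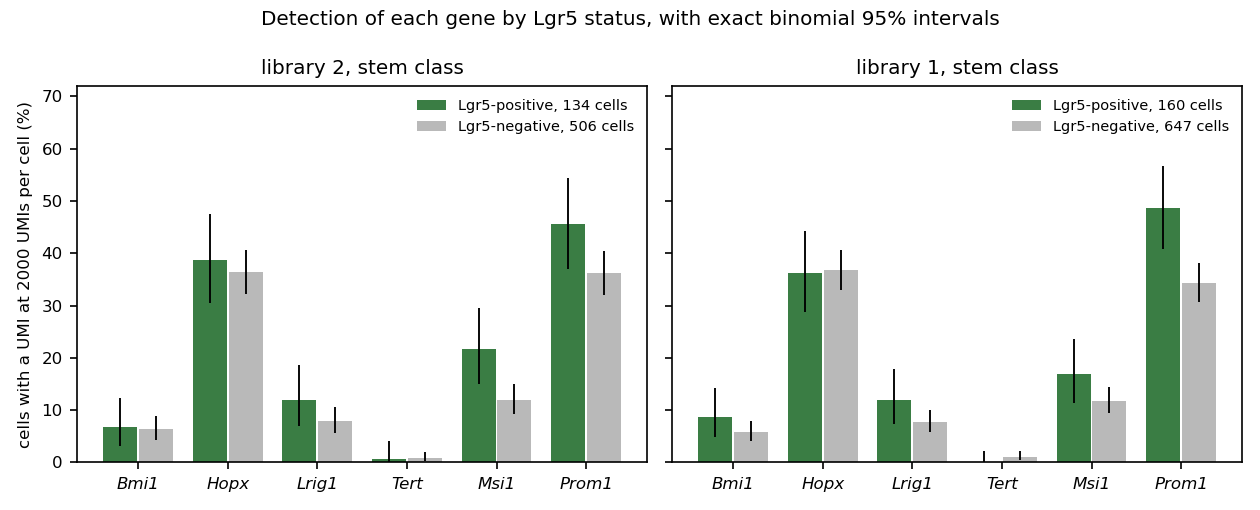
Share of stem class cells with a UMI of each member at 2000 UMIs per cell, in percent, for Lgr5-positive and Lgr5-negative cells of library 2 and library 1, with exact binomial 95% intervals. Msi1, Prom1 and Lrig1 bars are taller in Lgr5-positive cells in both libraries, and Hopx bars are level.

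Over all UMIs of the same cells, Lgr5-positive over Lgr5-negative CPM was 1.60 in library 2 (1.27 to 2.01) and 1.79 in library 1 (1.45 to 2.19) for Lrig1, and 1.56 and 1.61 for Msi1. Prom1 was at 1.15 and 1.38, Hopx at 1.01 in both libraries, and Bmi1 at 0.875 and 1.30. Among all genes 1.69% were called at least 1.5-fold higher in both libraries. The Lgr5-positive cells also had more stem panel UMIs, 143 per 10000 against 88.0 in Lgr5-negative cells in library 2 and 121 against 77.6 in library 1. Fewer of them were cycling, 46.3% against 63.8% in library 2 and 42.5% against 65.5% in library 1. The part of either in the Lgr5 differences was not tested.

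Read from the members, most cells with a UMI of one had none of Lgr5 at this depth. Among all cells thinned to 2000 UMIs, Lgr5 was seen in 21.3% of Msi1-positive cells in library 2 and 23.0% in library 1, in 13.8% and 16.5% of Lrig1-positive cells, and in 9.63% and 13.0% of Prom1-positive cells. It was seen in 8.64% and 9.45% of Hopx-positive and 6.33% and 9.95% of Bmi1-positive cells. The stem class held 59.3% and 67.8% of the Msi1-positive cells, but only 25.9% and 27.2% of the Bmi1-positive ones. Of the cells with no UMI of the member in question, 3.77% to 4.96% in library 2 and 4.63% to 6.16% in library 1 had one of Lgr5 over these 5 members. Thinning hides transcripts, while stray UMIs and doublets can add them, so these are shares of cells with UMIs and not of cells that express both genes. The part of stray UMIs and doublets in them was not tested.

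Members were also set against each other. A stem class cell at 2000 UMIs held on average 1.25 of the 6 if Lgr5-positive and 0.994 if Lgr5-negative in library 2, and 1.23 and 0.975 in library 1. The highest number in any cell was 4. Hopx and Prom1, the most often detected, were seen together in 89 cells of library 2, where 90.0 would follow from their separate shares, and in 115 cells of library 1, where 110 would. Msi1 and Prom1 were seen together in 29 cells (33.9 from separate shares) and 41 cells (38.3), and Bmi1 and Hopx in 17 (15.1) and 21 (19.1). Lrig1 and Prom1 were seen together in 28 (21.4) and 30 (25.7). Of the 15 pairs, 9 had at least 5 cells to be found together in both libraries from separate shares, and the counts of all 9 lay within 1.5-fold of that number, between 0.823 and 1.48 of it. Bmi1 and Lrig1 were together in 3 cells (3.59) of library 2 and 2 (4.45) of library 1. The 5 pairs with Tert were together in at most 3 cells of a library, too few to set against that number.

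Members were also compared after splitting the stem class at 20 cell cycle panel UMIs per 10000. This left 283 cells called non-cycling and 452 called cycling in library 2, and 379 and 629 in library 1. A cell below the split need not be quiescent, so the split does not measure quiescence. Msi1 was at 94.2 CPM in non-cycling and 68.9 CPM in cycling cells of library 2, a ratio of 1.37 (1.17 to 1.59), and at 78.3 and 52.5 CPM in library 1 (1.49, 1.29 to 1.73). Prom1 was at 1.22 (1.11 to 1.32) and 1.37 (1.27 to 1.48), and Lrig1 at 1.18 (0.95 to 1.45) and 1.29 (1.07 to 1.55). Bmi1 was at 0.874 (0.681 to 1.11) and 1.09 (0.890 to 1.32) and Hopx at 1.14 (1.04 to 1.25) and 1.04 (0.957 to 1.12). Tert, with 13 and 18 UMIs in non-cycling cells, was at 1.14 (0.533 to 2.33) and 1.23 (0.649 to 2.25). In total 0 of 6 members were called at least 1.5-fold higher in non-cycling cells in both libraries, beside 0.988% of all genes. With cells thinned, or with the split at 10 per 10000, Msi1 was called. Lgr5 itself was at 1.80 (1.61 to 2.02) and 2.51 (2.27 to 2.77), and the ratio of each of the 6 members was below these values. For Tert this holds for the ratio only, since its interval in library 2 reached past 1.80.

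Within the stem class the members also differed in how they followed the stem panel. Between the tertiles of cells with the highest and the lowest panel share, Msi1 stood at 129 and 33.8 CPM in library 2, a ratio of 3.82 (3.07 to 4.78), and at 92.9 and 31.3 CPM in library 1 (2.97, 2.43 to 3.64). Lrig1 was at 58.7 and 30.0 CPM in library 2 (1.96, 1.51 to 2.55) and at 57.2 and 27.1 CPM in library 1 (2.11, 1.68 to 2.66). These 2 were called in both libraries, beside 4.07% of all genes. Prom1 was at 1.48 and 1.71. Hopx was at 1.20 and 0.969, and Bmi1 at 0.949 and 1.31, so neither followed the panel in both libraries. Lgr5 was at 13.8 and 17.7.

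**Figure D4:**
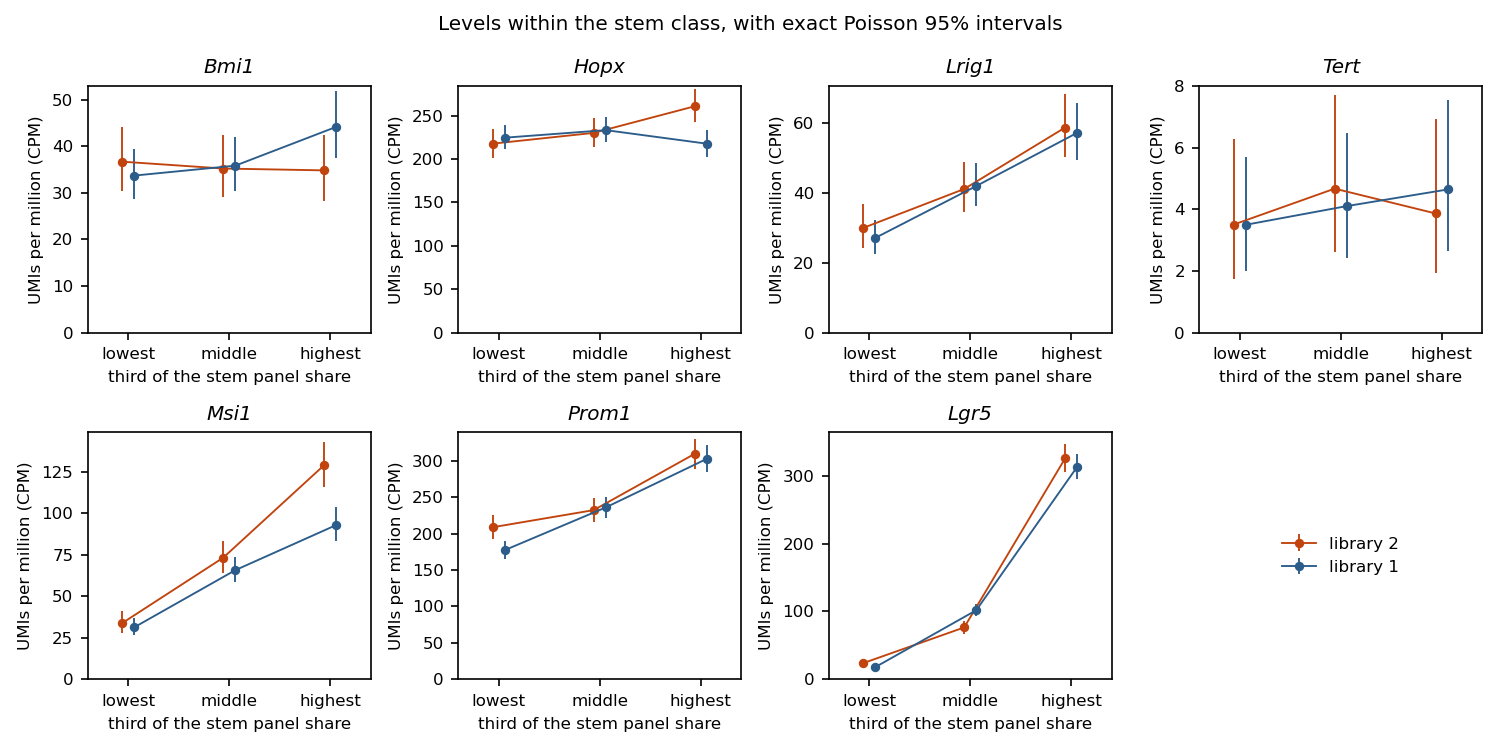
Level of each member and of Lgr5 in CPM, on linear axes from 0, in stem class cells split into tertiles by their stem panel share, with 1 line for library 2 and 1 for library 1 and exact Poisson 95% intervals. Msi1, Lrig1 and Prom1 climb with the panel, but far less steeply than Lgr5. Bmi1, Hopx and Tert have no ratio of highest to lowest tertile with an interval off 1 in both libraries.

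Across the 18 class-by-library points, whose neighbours share a library or a class, Pearson's r of log2(CPM + 1) was 0.829 between Hopx and Msi1, 0.808 between Msi1 and Prom1, and 0.781 between Hopx and Prom1. Bmi1 was at 0.681 with Hopx and 0.183 with Prom1. With Lgr5 it was 0.723 for Msi1, 0.428 for Hopx, 0.405 for Prom1, 0.290 for Lrig1 and 0.079 for Bmi1. Among 11075 genes with at least 200 UMIs, the pattern most like that of Prom1 was that of Ephb2 (0.971), a receptor that positions cells along the crypt, followed by Pkp1 (0.969) and B230118H07Rik (0.965). For Hopx these were Wdr35 (0.958), Arhgap35 (0.951) and Igsf8 (0.946), and for Bmi1 Bbx (0.965), Phtf1 (0.954) and Nt5c2 (0.954). For Msi1 they were Esam (0.955), Stra6l (0.951) and Zfp618 (0.949), for Lrig1 Thop1 (0.901), Sowahc (0.894) and Lgals12 (0.888), and for Tert Scrn2 (0.853), Lrrc41 (0.850) and Ccnyl1 (0.849). These values are descriptions over few classes. The Tert points rest on very few UMIs, 2 and 0 in tuft cells and 1 and 2 in T or intraepithelial lymphocytes of library 2 and library 1. Some matches of other members were scarce too, with 297 UMIs for Wdr35, 308 for Zfp618 and 382 for Esam. No match of any member was tested against counting error or against the choice among 11075 genes.

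The partners of each member were followed in the stem class by lists. Of the other Polycomb repressive complex 1 subunits, all 18 were measured with at least 20 UMIs, and 10 were called higher in the stem class than in enterocytes and 0 lower, with a median log2 ratio of 0.90. Of all genes, 36.7% were called higher there and 16.6% lower. Pcgf6, a paralogue of Bmi1, was at 55.5 CPM in the stem class and 13.1 CPM in enterocytes of library 2 (4.24), and at 56.9 and 15.1 CPM in library 1 (3.77). Pcgf5 was at 1.93 in both libraries and Pcgf3 at 0.933 and 0.844. Between the libraries Cbx8, a chromobox subunit, was at 11.8 CPM in library 2 and 20.6 CPM in library 1 (0.569, 0.450 to 0.715), and Kdm2b at 4.35 and 6.94 CPM (0.628, 0.420 to 0.923). These 2 of 18 were apart, beside the 3.1% above.

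Of the telomerase and telomere list 14 of 15 were measured, 11 were called higher in the stem class and Tep1 lower, beside 36.7% and 16.6% of all genes, with a median log2 ratio of 1.39, and 0 were apart between the libraries. Dkc1, the pseudouridine synthase of the telomerase and snoRNA particles, was at 186 CPM in the stem class and 24.3 CPM in enterocytes of library 2 (7.66), and at 192 and 29.1 CPM in library 1 (6.58). Its partners Nhp2 and Nop10 were at 3.95 and 1.65 in library 2 and at 3.98 and 1.72 in library 1. They were measured well where Tert was not, and they also serve ribosomal RNA.

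Of the Lrig and EGF receptor list 7 of 9 were measured and 2 called higher in the stem class, Egfr and Met. This was no more than the 36.7% of all genes, with a median log2 ratio of -0.17 and 0 apart between the libraries. Egfr, the EGF receptor itself, was at 3.58 (3.01 to 4.27) in library 2 and 4.36 (3.62 to 5.30) in library 1. Met, the receptor of hepatocyte growth factor, was at 68.1 CPM in the stem class and 35.4 CPM in enterocytes of library 2 (1.93), and at 65.5 and 38.5 CPM in library 1 (1.70). Erbb3 was at 130 CPM in both the stem class and enterocytes of library 2 and at 0.748 in library 1, and Cbl, a ubiquitin ligase of these receptors, at 0.998 in both libraries. Of the Musashi list 5 of 7 were measured, 3 higher and 1 lower, beside the same 36.7% and 16.6%, with a median of 0.88 and 0 apart. The 1 called lower was Numb, at 0.610 in library 2 and 0.606 in library 1. Msi2, the paralogue of Msi1, was at 82.3 CPM in the stem class and 41.3 CPM in enterocytes of library 2 (1.99), and at 72.7 and 42.5 CPM in library 1 (1.71). Pabpc1, a poly(A)-binding protein, was at 3.09 and 2.89, and Tsc22d1 at 0.741 and 0.836.

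Of the Hopx partners 6 of 7 were measured and 2 called higher, near the 36.7% of all genes, with a median of 0.33 beside 0.43 for all genes and 0 apart between the libraries. Smad4, the shared mediator of BMP and TGF-beta signals, was at 1.66 and 1.58, Gata6 at 1.23 and 1.19 and Gata4 at 0.723 and 0.826. Of the Prominin list 3 of 4 were measured, 0 higher and 1 lower, beside 36.7% and 16.6%, with a median of 0.28. Cdhr2, a cadherin of the brush border, was at 53.9 CPM in the stem class and 213 CPM in enterocytes of library 2 (0.253), and at 47.9 and 182 CPM in library 1 (0.264). Arl13b, a GTPase of cilia, was apart between the libraries at 7.94 and 12.0 CPM (0.661, 0.493 to 0.880). Ttyh1 had 17 UMIs in library 2 and 21 in library 1.

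Of 15 other genes of quiescent, revival or crypt base cells 12 were measured, 7 called higher in the stem class and 2 lower, beside 36.7% and 16.6% of all genes, with a median log2 ratio of 1.23. Sox9, a transcription factor of crypt base and secretory cells, was at 227 CPM in the stem class and 19.7 CPM in enterocytes of library 2 (11.5), and at 235 and 18.6 CPM in library 1 (12.6). Smoc2 was at 10.8 and 12.9 and Tnfrsf19 at 44.7 and 20.8, but both belong to the panel that set the class. Their calls were fixed in advance. Both are among the 7 and in the median, so neither figure is a like comparison with all genes. Krt19, a keratin, was called lower at 0.417 and 0.441. Between the libraries, Ly6a, which encodes the injury-induced surface protein Sca-1, was at 9.25 CPM in library 2 and 1.29 CPM in library 1 in the stem class (7.17, 4.17 to 13.1). It was higher in enterocytes, at 29.8 and 3.90 CPM, with library 2 above library 1 there too. Cdkn1c, the cell cycle inhibitor p57, was at 5.22 and 3.06 CPM (1.70, 1.09 to 2.68), and Krt15 at 4.57 and 8.79 CPM (0.520, 0.355 to 0.748). These 3 of 12 were apart between the libraries, beside 3.1% of genes with at least 100 UMIs, where the list needed only 20.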

How the data were processed

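The authors deposited raw UMI counts per gene and barcode as 1 matrix of both libraries, integers per the file header, and these counts were used as deposited. Per the labels' protocols, EDTA (5 mM, 30 min) freed the crypts, TrypLE (5 min) dissociated them, and 5 animals were pooled. The submitters' processing notes name Cell Ranger 2.1.1 and mm10. The calling of cells is not stated in the sources used here. Barcodes have 27 bases, which is not the length of the 10x kit named, so the capture chemistry is not settled. The number that ends each barcode was taken to mark the library.

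The filter of 500 genes and 25% mitochondrial UMIs kept 7784 of 12756 (61.0%). A cell took a class where a marker panel passed a minimum of UMIs per 10000: stem 25, enterocyte 50, goblet 60, Paneth 600, enteroendocrine 30, tuft 16, T or intraepithelial lymphocyte 30, B or plasma cell 10, myeloid 20, mesenchyme or endothelium 15 (Vim was dropped). A lineage panel came before the stem panel, and cells with neither were cycling progenitors from 20 cell cycle UMIs per 10000, or unclassified. Where the Paneth panel passed, goblet genes that Paneth cells share were not used. Cells with more than 1 lineage panel (114 in library 2, 88 in library 1) were left out, and no doublet caller was run, so doublets within a class remain. The minimums were set after the panel distributions had been seen.

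UMIs were summed per library and class as CPM. Intervals are exact Poisson, Clopper-Pearson or conditional 95% intervals, and like the floor of 3 counts they cover counting error only. With 1 library a group there is no test. Genes with at least 100 UMIs over the groups compared gave the background, in each library where classes were compared. For the shares of cells by Lgr5 status, the background was instead genes seen in at least 50 thinned stem class cells over both libraries. Members were held to neither minimum, and list genes needed only 20 UMIs in the stem class. Their counts and the background shares are therefore not strictly alike. Shares used cells thinned to 2000 UMIs. The arithmetic was tested on simulated data. Named genes are the members and Lgr5, the 3 genes most like each member, and from each list the 3 with most UMIs in the stem class plus those apart between the libraries. Tep1, Egfr, Numb and Tnfrsf19 were named after their values were seen. The members and lists were chosen with earlier results of these data known. Python 3.11.15, SciPy 1.17.1 and scanpy 1.11.5 were used. Alternatives changed the cell filter, the class rule, the panels, depth and the definition of Lgr5-positive cells.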

Additional observations from a re-analysis of the deposited data

Results flagged for a closer look

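For 4 members the ratio of library 2 to library 1 had an interval above 1 in some class and below 1 in another. The differences between classes were not tested. Bmi1 was at 2.62 in tuft cells, from 31 UMIs in library 2 and 6 in library 1, and at 0.812 in cycling progenitors. Hopx was at 1.65 in enteroendocrine cells and 0.755 in Paneth cells, and Msi1 at 1.27 in the stem class and 0.470 in Paneth cells. Prom1 was at 1.48 in tuft cells and 0.652 in Paneth cells. Without the Paneth cells that passed the stem panel, the Paneth ratios were 0.966 for Hopx (0.746 to 1.25), 1.07 for Prom1 and 0.628 for Msi1, so the opposite side of 1 was left for Msi1 alone among these 3. With such cells left out of the tuft class, Prom1 there lay further from 1, at 2.05 (1.46 to 2.95).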

How the results depend on the processing

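The count of 5 members above enterocytes held the same genes under all alternatives tried, and the count of 0 members apart between the libraries in the stem class stayed at 0. The count of 0 members higher in non-cycling cells became 1, Msi1, with cells thinned to 2000 UMIs and, as an alternative chosen after seeing the data, with a cell cycle minimum of 10 per 10000. The cause was not tested. The count of 4 members seen more often in Lgr5-positive cells ranged from 3 to 6. Msi1 and Prom1 were in it every time, and Lrig1 in all settings but the stricter cell filter. With no thinning all 6 were. Halved and doubled panel minimums and another random draw were also chosen after seeing the data, and changed neither of the first 2 counts where they were run. Of 306 recomputed values, 273 stayed within their error and 33 moved, with no called value changing sign. Some settings could hardly move them. Giving mixed cells a class left the stem class at 735 cells in library 2 and 1008 in library 1, and adding Lgr5 to its panel gave 735 and 1010. The 273 therefore include values that were fixed or nearly fixed in advance. No paired analysis was possible because each group is 1 library and the matrix columns carry no replicate number. Depth limits Tert everywhere, and tuft cells in library 1.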
